A study of Mus musculus with 6 samples.

Results

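The Ube2 genes encode the E2 enzymes, which carry activated ubiquitin or a related small protein to its substrate. The set held every mouse gene whose symbol begins with Ube2 and which was read by at least 1 probe set with a single gene symbol. It came to 33 of the 18193 genes measured, read by 81 probe sets, and of the probe sets for a gene, the one with the highest 6-array mean gave its level. By symbol alone the set also held Ube2d-ps, a pseudogene, and Ube2cbp, which encodes an E3-type protein that binds UBE2C and is not itself an E2.

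The study asked how transgenic Uchl1, which encodes a deubiquitinating enzyme, alters gene expression in germinal centre B cells, the dividing B cells of an immune response. After immunisation with sheep red blood cells the cells were isolated from spleen by magnetic beads, and their total RNA was read on Affymetrix mouse arrays, 1 array per mouse. The control group was ImHABCL6 (n = 3 mice), which expresses a tagged form of the germinal centre repressor BCL6 from an immunoglobulin heavy chain promoter. The second group was ImHABCL6/Uchl1 (n = 3 mice), which carries the same BCL6 allele together with transgenic Uchl1, so that both groups share the BCL6 allele and the immunisation. What drives the Uchl1 transgene, and the age and strain background of the mice, is not given in the sources used here.

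Ubiquitin is activated by an E1 enzyme, passed to the active-site cysteine of an E2, and transferred to a substrate with the help of an E3 ligase. The E2 often sets which kind of ubiquitin chain is built, and thereby whether the substrate is degraded by the proteasome or altered in its signalling. Dedicated E2s load the ubiquitin-like proteins NEDD8 and ISG15, and a few E2s are known for their abundance in maturing red cells, where they help to remodel the proteome.

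Promoter windows are shown for 4 genes on which the results below turn. They are Ube2t, which had the lowest unadjusted p of the set, Ube2c, an E2 of the anaphase-promoting complex, and Ube2h and Ube2l6, which varied widely between mice. The windows hold 250 bases before and 50 after an annotated start, 5′ to 3′ along the gene, from RefSeq on GRCm38.p6. They lie at chr1:134962315-134962614 (plus strand, Ube2t), chr2:164769679-164769978 (plus strand, Ube2c), chr6:30243754-30244053 (minus strand, the inner of the Ube2h starts) and chr2:84798578-84798877 (plus strand, Ube2l6). Capitals mark CCACNCCC in Ube2t, TTTGAA in Ube2c and AGATAA in Ube2h, each on either strand, and Ube2l6 held none of the motifs searched.
Ube2t: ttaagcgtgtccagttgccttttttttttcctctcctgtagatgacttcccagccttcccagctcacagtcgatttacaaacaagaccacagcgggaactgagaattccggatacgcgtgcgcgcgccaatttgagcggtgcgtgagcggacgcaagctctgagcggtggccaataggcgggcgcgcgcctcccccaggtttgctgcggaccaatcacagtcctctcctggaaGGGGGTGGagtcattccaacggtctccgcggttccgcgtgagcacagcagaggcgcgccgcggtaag
Ube2c: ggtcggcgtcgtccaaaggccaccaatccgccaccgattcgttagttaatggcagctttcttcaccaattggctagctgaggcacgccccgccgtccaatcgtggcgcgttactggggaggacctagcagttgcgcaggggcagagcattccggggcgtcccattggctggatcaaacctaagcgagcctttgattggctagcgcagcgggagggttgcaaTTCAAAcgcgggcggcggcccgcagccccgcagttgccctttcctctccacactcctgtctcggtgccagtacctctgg
Ube2h: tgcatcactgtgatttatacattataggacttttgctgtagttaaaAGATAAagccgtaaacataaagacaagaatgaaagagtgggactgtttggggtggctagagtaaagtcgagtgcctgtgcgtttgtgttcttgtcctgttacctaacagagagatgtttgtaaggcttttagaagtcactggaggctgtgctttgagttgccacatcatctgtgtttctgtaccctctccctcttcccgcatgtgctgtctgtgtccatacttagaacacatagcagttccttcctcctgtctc
Ube2l6: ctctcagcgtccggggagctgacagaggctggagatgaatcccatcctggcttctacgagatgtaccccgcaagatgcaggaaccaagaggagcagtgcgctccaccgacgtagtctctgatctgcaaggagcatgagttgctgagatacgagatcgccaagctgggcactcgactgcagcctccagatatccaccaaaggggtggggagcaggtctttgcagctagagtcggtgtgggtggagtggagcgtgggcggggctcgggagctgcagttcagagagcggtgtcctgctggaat

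RefSeq windows were found for 27 of the 33 genes, 36 windows in all, and each was searched on both strands for 5 motifs. The GATA motif AGATAA or TGATAA was in 1 of the 36 windows, that of Ube2h, at position -204 from the start, and in 18.6% of all 32851 promoter windows. The CACCC motif CCACNCCC was in 7 windows of 7 Ube2 genes, among them Ube2t at position -17, and in 17.6% of all windows. The cell cycle element TTTGAA was in 4 windows, among them Ube2c at position -29, against 17.9% of all windows. The interferon-response letters GAAANNGAA were in 3 windows of Ube2d3 and Ube2u, against 8.56% of all windows, and the E2F letters TTTGGCGC, TTTCCCGC or TTTCGCGC were in 1 window, that of Ube2q1, against 1.84%. These matches are letters in a window and were not tested as binding sites.

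Over 45101 probe sets the deposited log2 values lay between 2.16 and 15.1, with array medians from 5.56 to 5.67. Uchl1 read 5.01, 5.0 and 5.02 in the ImHABCL6 mice and 5.96, 5.87 and 6.02 in the ImHABCL6/Uchl1 mice, a difference of 0.94 (SE 0.12, adjusted p = 0.638). All 6 Uchl1 values lay below 6.32, the median of the gene means, under which a gene is called dim here. All 11 germinal centre B-cell markers measured were above that level on every array. So were 15 of 16 erythroid markers, all but Hba-a1, whose probe set read 3.89 to 4.41. None of 7 T-cell, 6 neutrophil or 4 NK-cell markers reached that level on every array, and 2 of 9 macrophage, 4 of 5 platelet and 4 of 5 plasma cell markers did. The mean of the 16 erythroid markers was 10.39, 10.96 and 11.38 in the ImHABCL6 mice and 8.85, 10.84 and 10.19 in the ImHABCL6/Uchl1 mice. In such bulk samples, fewer cells of a type and less RNA per cell cannot be told apart.

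No Ube2 gene differed between the genotypes at an adjusted p under 0.05 (limma with Benjamini-Hochberg adjustment over all genes, two-sided), and the adjusted p values of the 33 genes ran from 0.983 to 0.999. Of all 18193 genes, 0.0% passed that threshold. Before adjustment, 2 Ube2 genes, Ube2t and Ube2d-ps, were lower in ImHABCL6/Uchl1 at p under 0.05, which is 6.06% of the set against 3.85% of all genes, and 0 were higher, against 1.09% of all genes. Fitted differences were below 0 for 23 of 33 Ube2 genes and for 49.4% of all genes. The median log2 difference was -0.07 over the Ube2 genes and 0.00 over all genes. When genes with means under 6.32 were left out, 22 of 28 Ube2 genes were lower, against 61.6% of all genes kept. The medians were then -0.09 over the Ube2 genes and -0.06 over all genes kept. The median standard error of a difference over all genes was 0.165. The 3 arrays of one genotype lay wholly below those of the other, lower in ImHABCL6/Uchl1, for 2 Ube2 genes (Ube2t and Ube2d-ps) and for 5.49% of all genes. They lay wholly above for 2 Ube2 genes (Ube2u and Ube2d1) and for 3.95% of all genes. The limma p values set each difference against a variance estimated from 3 mice per group and moderated by the variances of all genes. With 3 mice per group the smallest p of an exact permutation test is 0.1.

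The count of 23 lower genes changed with the setting. It was 18 after quantile normalization, where 45.2% of all genes were lower. It was 19 after median centring (43.4% of all genes), with the mean of all probe sets (47.5%), with array weights (51.4%) or with the erythroid covariate (52.9%). Without ImHABCL6/Uchl1 replicate 2, 17 of the 33 genes were lower, and 16 of the 33 differences changed sign. The count of genes whose groups did not overlap was 4 over all arrays, and 2 when genes with means under 6.32 were left out, which removed Ube2u and Ube2d1. It was 8 without ImHABCL6/Uchl1 replicate 1 and 10 without ImHABCL6/Uchl1 replicate 2, where fewer arrays make a separation easier by construction. The share of all genes without overlap was not computed for these settings, so whether the counts exceed it is not known.

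**Figure D1:**
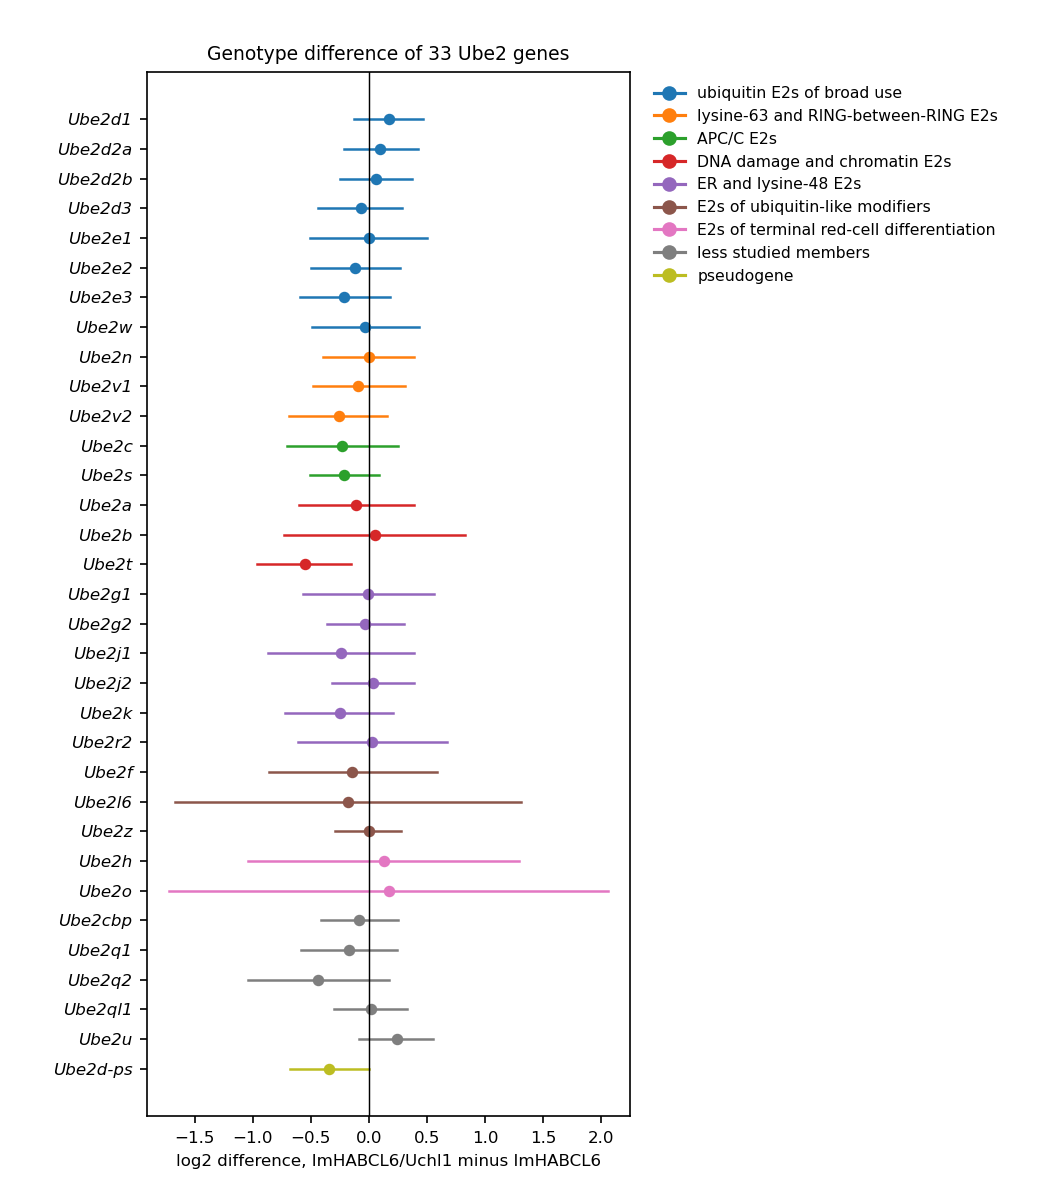
Fitted log2 difference, ImHABCL6/Uchl1 minus ImHABCL6 (horizontal axis), of each of the 33 Ube2 genes, with points for the difference, bars for its 95% confidence interval and colours for the role. The differences run from -0.55 for Ube2t to 0.24 for Ube2u, and the bars of Ube2o, Ube2l6 and Ube2h are the widest.

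Among the E2s of broad use, which work with many E3 ligases, 5 of 8 were lower and the median difference was -0.02, with a range from -0.21 to 0.17. UBE2D enzymes start and extend chains for many RING ligases. Ube2d1 read 5.97, 5.81 and 6.07 in the ImHABCL6 mice and 6.14, 6.16 and 6.08 in the ImHABCL6/Uchl1 mice, a difference of 0.17 (SE 0.13, adjusted p = 0.998). The 2 ranges came within 0.01 without overlapping, and the probe set was dim on every array. The differences were 0.10 for Ube2d2a, 0.06 for the dim Ube2d2b and -0.07 for Ube2d3.

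UBE2E enzymes are close relatives of the UBE2D group with an extended amino terminus. Ube2e3 read 11.29, 11.37 and 11.60 in the ImHABCL6 mice and 10.97, 11.46 and 11.22 in the ImHABCL6/Uchl1 mice. It was highest in ImHABCL6 replicate 3 and lowest in ImHABCL6/Uchl1 replicate 1, and the groups overlapped, with a difference of -0.21 (95% confidence interval -0.59 to 0.18, adjusted p = 0.998). Ube2e1 differed by -0.00 and the dim Ube2e2 by -0.12. Ube2w, whose product attaches ubiquitin to the amino terminus of substrates, differed by -0.03. The pseudogene Ube2d-ps read 6.92, 6.58 and 6.76 in the ImHABCL6 mice and 6.57, 6.35 and 6.31 in the ImHABCL6/Uchl1 mice, a difference of -0.34 (SE 0.15, limma p = 0.0482, adjusted p = 0.998, exact permutation p = 0.1). Its groups were separated by 0.01, its second probe set differed by -0.18, and a pseudogene can share reads of its probes with the parent genes.

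UBE2N builds signalling chains that do not mark proteins for degradation, and it needs an inactive partner, UBE2V1 or UBE2V2. Ube2n was level between the genotypes: 9.87, 10.07 and 9.94 in the ImHABCL6 mice and 10.12, 9.63 and 10.12 in the ImHABCL6/Uchl1 mice, with a mean of 9.96 in each group and a difference of -0.00 (95% confidence interval -0.39 to 0.39). Ube2v1 differed by -0.09. Ube2v2 read between 9.99 and 10.06 in the ImHABCL6 mice and 10.08, 9.38 and 9.79 in the ImHABCL6/Uchl1 mice, a difference of -0.26 (SE 0.19, adjusted p = 0.998). The low value of Ube2v2 was that of ImHABCL6/Uchl1 replicate 2, which was also the lowest array for Ube2n and Ube2v1. Of 15 measured ligases and factors of these and linear chains, 6 were lower and 9 higher, with a median of 0.04. The members of smallest p were Birc2, an inhibitor-of-apoptosis ligase (-0.38, SE 0.13), and Traf6, a ligase of receptor signalling (0.34, SE 0.13), both with an adjusted p of 0.983.

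UBE2C and UBE2S work in turn on the anaphase-promoting complex, or APC/C, the ligase that ends mitosis. UBE2C places the first ubiquitins and UBE2S extends the chain. Ube2c read 12.58, 12.72 and 13.03 in the ImHABCL6 mice and 12.21, 12.90 and 12.54 in the ImHABCL6/Uchl1 mice. The groups overlapped, with means of 12.78 ± 0.23 and 12.55 ± 0.34 (SD, n = 3 each) and a difference of -0.23 (95% confidence interval -0.70 to 0.25, adjusted p = 0.998). Ube2s read 12.62, 12.81 and 12.82 in the ImHABCL6 mice and 12.50, 12.63 and 12.49 in the ImHABCL6/Uchl1 mice, a difference of -0.21 (SE 0.13, adjusted p = 0.998). The groups of Ube2s met at ImHABCL6 replicate 1 and ImHABCL6/Uchl1 replicate 2, and its second, dim probe set differed by 0.12. Of 17 measured APC/C subunits and regulators, 16 were lower, with a median of -0.07 and a range from -0.38 to 0.01. Fbxo5, the APC/C inhibitor EMI1, read 11.13, 11.29 and 11.46 against 10.74, 11.04 and 10.95, a difference of -0.38 (SE 0.15, adjusted p = 0.983). Fzr1, which activates the complex after mitosis, differed by -0.30 and the core subunit Cdc27 by -0.22.

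UBE2T is the E2 of the Fanconi anaemia pathway, in which it attaches a single ubiquitin to FANCD2 and FANCI at stalled replication forks. Ube2t read 9.37, 9.58 and 9.65 in the ImHABCL6 mice and 9.28, 8.95 and 8.70 in the ImHABCL6/Uchl1 mice. Every ImHABCL6/Uchl1 value lay below every ImHABCL6 value, with means of 9.53 ± 0.14 and 8.98 ± 0.29 (SD, n = 3 each). The difference was -0.55 (1.47-fold lower, 95% confidence interval -0.96 to -0.15, SE 0.18, limma p = 0.0133), and it did not pass the adjustment (adjusted p = 0.983, exact permutation p = 0.1). When each of the 6 mice was left out in turn, the difference ran from -0.70 to -0.42. The second probe set of Ube2t, which was dim, differed by -0.02, and the mean of both probe sets by -0.29.

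The other chromatin E2s, UBE2A and UBE2B, are homologues of yeast Rad6 that ubiquitinate PCNA and histone H2B. Ube2a differed by -0.11. Ube2b read 10.76, 11.28 and 11.30 in the ImHABCL6 mice and 10.85, 11.99 and 10.66 in the ImHABCL6/Uchl1 mice, a difference of 0.05 (95% confidence interval -0.73 to 0.83). It was highest in ImHABCL6/Uchl1 replicate 2 and the groups overlapped. Among 12 measured partners of these E2s in DNA damage ubiquitination, 10 were lower, with a median of -0.17, and 5 were lower on every ImHABCL6/Uchl1 array than on any ImHABCL6 array, against 5.49% of all genes. Fanci, a UBE2T substrate, read 8.51, 8.56 and 8.65 against 8.35, 8.20 and 8.13, a difference of -0.35 (SE 0.13, adjusted p = 0.983). Rnf168 differed by -0.27 and Rnf8 by -0.24, both ligases at DNA breaks, Fancd2 by -0.25 and Fancl, the ligase that works with UBE2T, by -0.17.

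Ube2t was set beside genes of cell division. The mean of 30 cell division genes was 11.51, 11.56 and 11.66 in the ImHABCL6 mice and 11.34, 11.28 and 11.31 in the ImHABCL6/Uchl1 mice, and all 30 had differences below 0, against 49.4% of all genes, with a median of -0.24 and 0 of 30 at an adjusted p under 0.05. Over the 6 arrays Ube2t had Pearson r = 0.88 with the division mean (exact permutation p = 0.0208, adjusted p = 0.637 over 54579 relations) and Spearman rho = 0.94. With the 2 arrays farthest from the median score left out, ImHABCL6 replicate 3 and ImHABCL6/Uchl1 replicate 2, r was 0.83. Both Ube2t and the division mean were lower on every ImHABCL6/Uchl1 array than on any ImHABCL6 array. These r values of Ube2t therefore include the difference between the genotypes. Within ImHABCL6 the arrays stood in the same order for both. Within ImHABCL6/Uchl1 the division mean was lowest in replicate 2 and Ube2t in replicate 3. Ube2s had r = 0.83 (exact permutation p = 0.0611, adjusted p = 0.770) and Ube2c had r = 0.47 (exact permutation p = 0.350). The part of cell division in the level of Ube2t was not tested. Ube2t had r = 0.32 with the erythroid mean.

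**Figure D2:**
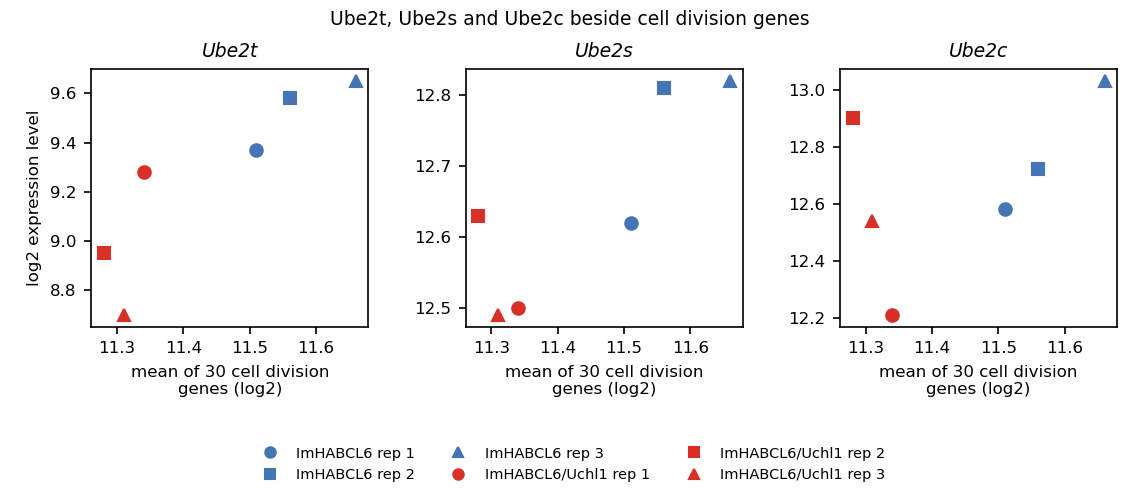
Log2 level of Ube2t, Ube2s and Ube2c (vertical axes) on each array against the mean log2 level of 30 cell division genes (horizontal axes), blue for ImHABCL6 and red for ImHABCL6/Uchl1, with the replicate given by the symbol. The 3 ImHABCL6/Uchl1 points lie to the left at 11.28 to 11.34, and they are also the lowest for Ube2t but not for Ube2c.

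Among the E2s of the endoplasmic reticulum and of degradative chains, 4 of 6 were lower, with a median of -0.02 and a range from -0.25 to 0.04. Ube2k read 11.02, 11.11 and 10.91 in the ImHABCL6 mice and 11.10, 10.33 and 10.85 in the ImHABCL6/Uchl1 mice, a difference of -0.25 (SE 0.20, adjusted p = 0.998). Ube2j1, whose product is anchored in the reticulum membrane, read 10.45, 10.22 and 10.29 against 10.39, 9.39 and 10.45, a difference of -0.24. Both genes were lowest in ImHABCL6/Uchl1 replicate 2, and the other arrays of the groups overlapped. Ube2g1 differed by -0.01, Ube2g2 by -0.03, Ube2j2 by 0.04 and Ube2r2, a CDC34-type enzyme of cullin ligases, by 0.03. Of 16 measured genes of degradation at the reticulum, 8 were lower and 8 higher.

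UBE2F loads NEDD8 on cullin 5, UBE2L6 is the E2 of ISG15, and UBE2Z takes ubiquitin or FAT10 from the E1 UBA6. Ube2l6 read 7.80, 8.89 and 9.68 in the ImHABCL6 mice and 7.59, 9.99 and 8.25 in the ImHABCL6/Uchl1 mice. The groups overlapped across nearly their whole ranges, with means of 8.79 ± 0.94 and 8.61 ± 1.24 (SD, n = 3 each) and a difference of -0.18 (95% confidence interval -1.67 to 1.31, SE 0.64, adjusted p = 0.998). Its sign turned, to 0.33, without ImHABCL6/Uchl1 replicate 1 and, to 0.26, without ImHABCL6 replicate 3. Ube2f read 9.15, 9.89 and 9.98 against 9.16, 10.17 and 9.28, a difference of -0.14 (95% confidence interval -0.86 to 0.59). Ube2z spanned 0.14 over the 6 arrays, between 9.37 and 9.51, and only 0.962% of genes spanned less.

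The other 4 measured genes of the ISG15 pathway all had differences below 0, with a median of -0.70, and 3 of them had an unadjusted p under 0.05, against 3.85% of all genes lower at that threshold. Herc6, the mouse ISG15 ligase, read 7.95, 8.28 and 8.38 in the ImHABCL6 mice and 7.20, 7.28 and 7.56 in the ImHABCL6/Uchl1 mice, a difference of -0.85 (SE 0.17, adjusted p = 0.648). Uba7, the E1 of ISG15, read 9.56, 9.54 and 9.67 against 9.16, 9.23 and 8.73, a difference of -0.55 (SE 0.16, adjusted p = 0.915). Usp18, which removes ISG15, differed by -1.14 and Trim25 by -0.24. Herc6 and Uba7 were separated between the groups, and Ube2l6 was not, though the difference between Ube2l6 and these genes was not tested. The mean of 27 interferon-stimulated genes was 8.43, 8.17 and 8.32 in the ImHABCL6 mice and 7.27, 7.67 and 8.05 in the ImHABCL6/Uchl1 mice. Ube2l6, itself known as an interferon-stimulated gene, had r = 0.15 with that mean over the 6 arrays (exact permutation p = 0.776, adjusted p = 0.996). The part of the interferon-stimulated genes in the ISG15 pathway values was not tested.

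UBE2O and UBE2H are known for their rise in late red-cell precursors, where UBE2O clears unassembled globin and ribosomal proteins and UBE2H is the E2 of the CTLH ligase complex. Neither differed between the genotypes beyond its spread. Ube2o read 8.57, 10.14 and 10.58 in the ImHABCL6 mice and 8.64, 11.84 and 9.32 in the ImHABCL6/Uchl1 mice. The lowest arrays were replicate 1 of each genotype and the highest was ImHABCL6/Uchl1 replicate 2, with means of 9.76 ± 1.05 and 9.93 ± 1.69 (SD, n = 3 each) and a difference of 0.17 (95% confidence interval -1.72 to 2.06, adjusted p = 0.998). Ube2h read 10.03, 10.92 and 11.16 against 10.14, 12.04 and 10.32, a difference of 0.13 (95% confidence interval -1.04 to 1.29). Without ImHABCL6/Uchl1 replicate 2 the differences were -0.79 for Ube2o and -0.48 for Ube2h, and without ImHABCL6 replicate 1 they were -0.43 and -0.21. The other 3 probe sets of Ube2h spanned 0.51 to 0.75, against 2.01 for the one used, and differed by -0.26 to -0.18. All 3 were highest in ImHABCL6 replicate 3 (10.68, 9.35 and 6.99), above ImHABCL6/Uchl1 replicate 2 (10.43, 8.92 and 6.54).

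The less studied members completed the set. Ube2q2 read 8.24, 8.25 and 8.24 in the ImHABCL6 mice and 8.41, 7.27 and 7.74 in the ImHABCL6/Uchl1 mice, a difference of -0.44 (95% confidence interval -1.04 to 0.17, adjusted p = 0.998). Its ImHABCL6 values were nearly identical and its ImHABCL6/Uchl1 values lay on both sides of them. Ube2u read 3.01, 2.99 and 3.00 against 3.07, 3.42 and 3.23, a difference of 0.24 (SE 0.14, adjusted p = 0.998) on a probe set near the bottom of the scale. Ube2q1 differed by -0.17, Ube2cbp by -0.08 and the dim Ube2ql1 by 0.02.

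The Ube2 genes were next described by their spread over the 6 mice. The span, the highest minus the lowest of the 6 log2 levels, had a median of 0.63 over the Ube2 genes and 0.55 over all genes. It exceeded 1 for 8 of the 33 Ube2 genes (24.2%), which were Ube2o, Ube2l6, Ube2h, Ube2b, Ube2q2, Ube2r2, Ube2j1 and Ube2f, and for 11.5% of all genes. Ube2o spanned 3.27, a 9.63-fold range that was wider than in 99.7% of genes. Ube2l6 spanned 2.40 (5.28-fold, wider than in 98.9%) and Ube2h 2.01 on the probe set used (4.01-fold, wider than in 98.2%).

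**Figure D3:**
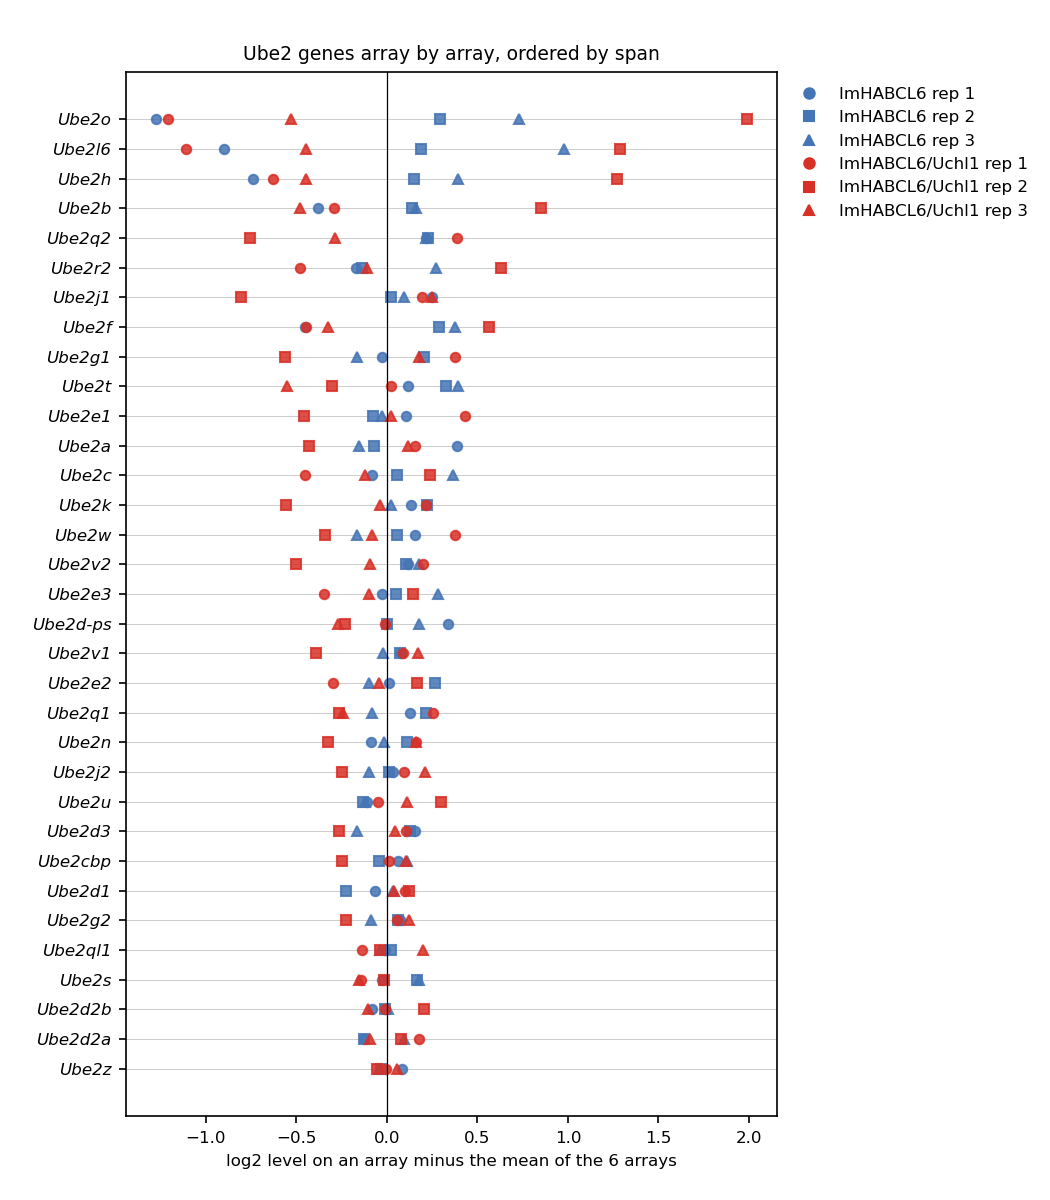
Log2 level of each Ube2 gene on each array minus that gene's mean over the 6 arrays (horizontal axis), with genes ordered by span, blue for ImHABCL6, red for ImHABCL6/Uchl1 and the replicate given by the symbol. ImHABCL6/Uchl1 replicate 2, the red square, is the highest array for 9 genes, among them Ube2o at the top, and the lowest for 16.

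ImHABCL6/Uchl1 replicate 2 was the highest array for 9 of the 33 Ube2 genes (Ube2b, Ube2d1, Ube2d2b, Ube2f, Ube2h, Ube2l6, Ube2o, Ube2r2 and Ube2u), a share close to the 25.5% of all genes for which it was highest. It was the lowest array for 16 of the 33, against 27.9% of all genes. The 16 included Ube2n, Ube2v1 and Ube2v2, the reticulum E2s Ube2j1, Ube2j2, Ube2g1 and Ube2g2, and Ube2k, Ube2q1, Ube2q2, Ube2w and Ube2z.

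On the probe sets used, Ube2o, Ube2h, Ube2l6, Ube2b, Ube2f and Ube2r2 shared one profile over the arrays. For Ube2h this holds for 1 of its 4 probe sets, as the others did not peak in ImHABCL6/Uchl1 replicate 2. A bright probe set of Ube2b (9.55, against 9.31 in ImHABCL6/Uchl1 replicate 2) also peaked in ImHABCL6 replicate 3. So did a bright probe set of Ube2f (8.11 against 7.90). The remaining bright probe sets of Ube2b, Ube2f and Ube2r2 peaked in ImHABCL6/Uchl1 replicate 2. Ube2o and Ube2l6 were read by 1 probe set each. These 6 genes were grouped after their values were seen, so their likeness is a description: the 15 pairwise r values lay between 0.83 and 0.99, with 0.99 for Ube2o and Ube2h and 0.97 for Ube2o and Ube2l6. The 6 points of each r are the same 6 arrays. Among the 331 genes that spanned over 2, the profiles most like that of Ube2o were Marchf2 (r = 0.996), Rnf11 (0.995), Ube2h (0.994), Slc25a39 (0.994), Adipor1 (0.994) and Ncoa4 (0.993), followed by Tent5c, Fam220a and Alas2 (0.990).

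Alas2, the first enzyme of haem synthesis in red cells, read 10.50, 12.14 and 12.70 in the ImHABCL6 mice and 10.29, 13.60 and 11.38 in the ImHABCL6/Uchl1 mice. Like Ube2o, it was lowest in replicate 1 of both genotypes and highest in ImHABCL6/Uchl1 replicate 2. Klf1, a transcription factor of earlier red-cell precursors, read 11.73, 12.11 and 12.51 against 9.68, 11.31 and 11.46, with its highest value in ImHABCL6 replicate 3. Of the 16 erythroid markers, 2 had r over 0.8 with Ube2o (Alas2 and Trim10, 0.83) and the lowest was 0.22 for Car1, while 14 had r over 0.8 with Ube2c.

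Of the 11 germinal centre B-cell markers, none ran with Ube2o: their r values lay between -0.94, for Mef2b and Rgs13, and 0.06, for Pax5. Rgs13 read 11.95, 11.47 and 11.53 in the ImHABCL6 mice and 12.19, 11.14 and 11.68 in the ImHABCL6/Uchl1 mice, lowest where Ube2o was highest.

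**Figure D4:**
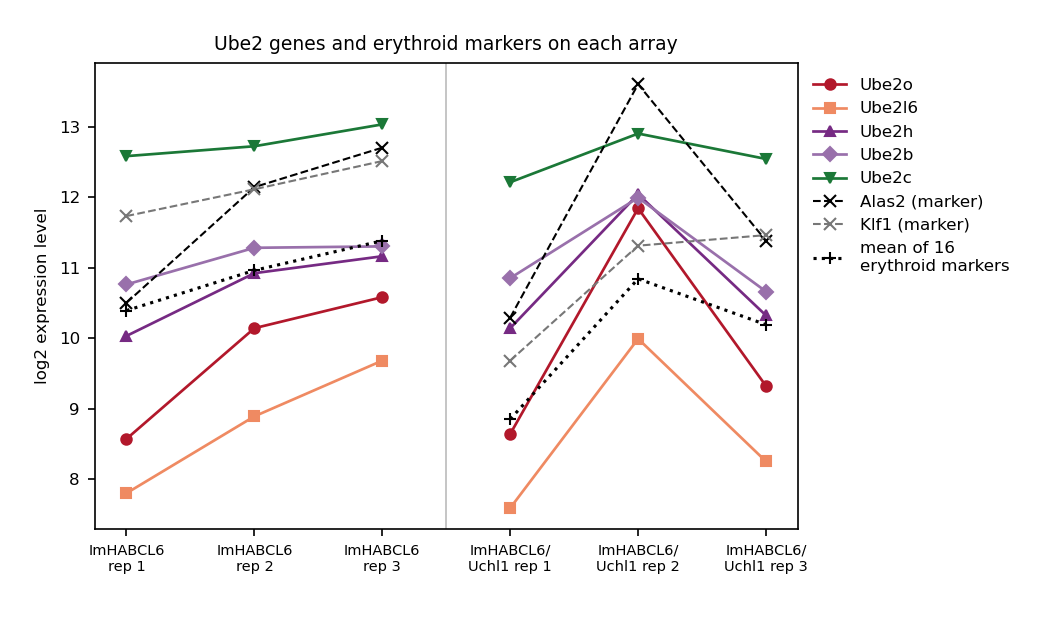
Log2 level (vertical axis) of 5 Ube2 genes, the erythroid markers Alas2 and Klf1 and the mean of 16 erythroid markers on each of the 6 arrays (horizontal axis); lines only join the points of a gene within a genotype, and heights of different genes are not comparable. Ube2o, Ube2l6, Ube2h and Alas2 peak in ImHABCL6/Uchl1 replicate 2, at 11.84, 9.99, 12.04 and 13.60, whereas Ube2c, Klf1 and the marker mean are highest in ImHABCL6 replicate 3.

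Set against the mean of the 16 erythroid markers, 5 Ube2 genes had a positive r with an unadjusted exact permutation p under 0.05 (15.2% of the set, against 4.91% of all genes), and 0 had a negative one (against 4.82% of all genes). Ube2e3 had r = 0.97 (exact permutation p = 0.00278, adjusted p = 0.455, rho = 0.94) and Ube2c had r = 0.95 (exact permutation p = 0.00417, adjusted p = 0.468, rho = 0.94). Ube2s had r = 0.81 (exact permutation p = 0.0264), Ube2l6 0.79 (exact permutation p = 0.0403) and Ube2f 0.76 (exact permutation p = 0.0431), with adjusted p values of 0.674, 0.726 and 0.733. None of the relations passed adjustment over all 54579 computed, which were 18193 genes against 3 marker means, and the smallest adjusted p over all genes was 0.426. Without the 2 arrays farthest from the median score, ImHABCL6/Uchl1 replicate 1 and ImHABCL6 replicate 3, r was 0.89 for Ube2e3, 0.82 for Ube2c, 0.87 for Ube2s, 0.72 for Ube2l6 and 0.88 for Ube2f. Ube2o had r = 0.67 (exact permutation p = 0.136) and Ube2h 0.62 (exact permutation p = 0.192). The count of 5 was 3 after centring each array on its median and 2 without probe sets whose names mark possible cross-hybridisation.

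Across the whole set the relation ran both ways. The median r with the erythroid mean was -0.23 over the Ube2 genes and -0.04 over all genes, and the most negative values were -0.76 for Ube2w and -0.74 for Ube2e1. Within each genotype taken alone, the 3 arrays stood in the same order as the erythroid mean for 7 Ube2 genes (Ube2c, Ube2e3, Ube2f, Ube2h, Ube2l6, Ube2o and Ube2r2), 21.2% of the set against 6.93% of all genes. The erythroid mean itself correlated with the interferon mean (r = 0.72) and the division mean (r = 0.57) over the same arrays. The part of erythroid RNA in the levels of the Ube2 genes was not tested. The labels name no processing batch or date within which these relations could be computed.

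**Figure D5:**
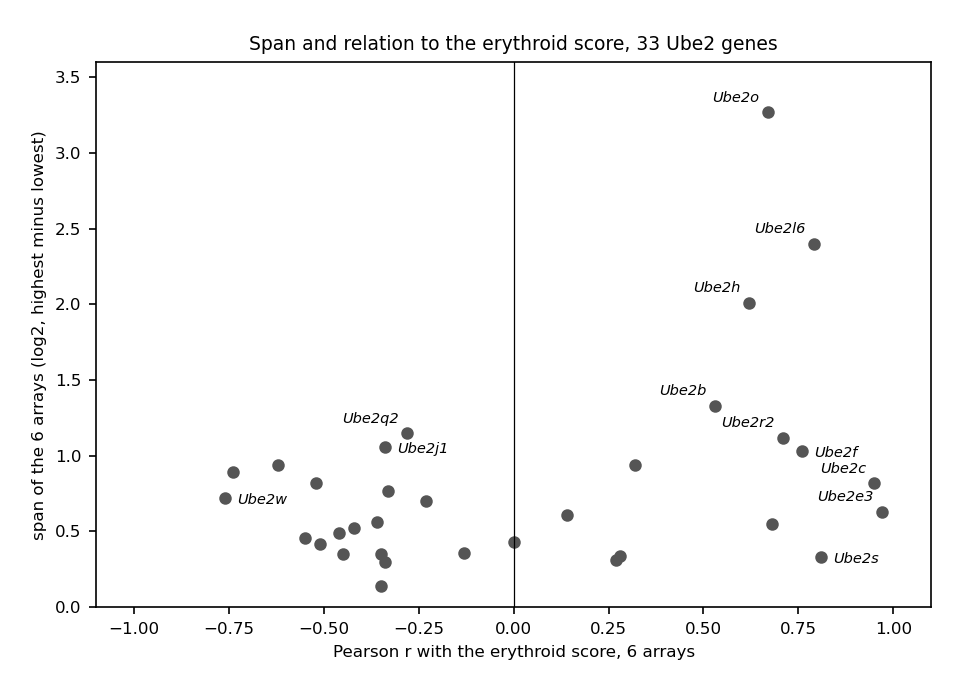
Span of the 6 log2 levels of each of the 33 Ube2 genes (vertical axis) against its Pearson r with the mean of 16 erythroid markers over the 6 arrays (horizontal axis). Ube2o, Ube2l6 and Ube2h stand highest, at spans of 3.27, 2.40 and 2.01, on the side of positive r, and Ube2e3 and Ube2c lie farthest right, at 0.97 and 0.95.

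With the erythroid mean as a covariate in the fit, 12 of the 33 Ube2 genes had an unadjusted p under 0.05, against 15.8% of all genes, and 0 passed adjustment, with a smallest adjusted p of 0.286. In that fit the differences were 1.66 for Ube2o, 0.98 for Ube2h and 1.01 for Ube2l6, and -0.66 for Ube2t and -0.87 for Ube2q2.

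The CTLH complex, the ligase served by UBE2H, gave 8 lower and 3 higher genes of 11, with a median of -0.12. Mkln1, which encodes the subunit muskelin, read 9.20, 9.17 and 9.09 in the ImHABCL6 mice and 8.76, 8.23 and 8.83 in the ImHABCL6/Uchl1 mice, a difference of -0.55 (SE 0.18, adjusted p = 0.983). Gid8 differed by -0.40 and Rmnd5b by 0.31. Named after their values were seen, the subunits Armc8 and Ypel5 shared the profile of Ube2o, with r = 0.98 and 0.99. Armc8 read 7.71, 9.04 and 9.88 in the ImHABCL6 mice and 8.04, 11.96 and 8.50 in the ImHABCL6/Uchl1 mice, a span of 4.26, and Ypel5 spanned 1.63. The 11 genes of the complex ran both ways: r with Ube2o was 0.90 for Wdr26 and 0.81 for each of Rmnd5a and Ranbp10. It was -0.47 for Maea, a RING subunit that spanned 0.30, -0.77 for Gid4 and -0.93 for Ranbp9.

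The remaining lists of the conjugation pathway showed no gene at an adjusted p under 0.05. Of 7 measured E1 genes, 4 were lower, with a median of -0.07, and Nae1, a subunit of the NEDD8 E1, differed by -0.41 (SE 0.15, adjusted p = 0.983). Of 8 E2-type genes without a Ube2 symbol, 6 were lower, with a median of -0.15. Tsg101, an inactive E2 homologue of endosomal sorting, differed by -0.19, its relative Uevld by -0.24, and Atg10, an E2-like enzyme of autophagy, by 0.38. Of 13 measured ubiquitin-like modifiers, 9 were lower, with a median of -0.04 and the lowest value for Gabarapl1 (-0.53, SE 0.18, adjusted p = 0.983). Of 15 genes of neddylation and cullin ligases, 10 were lower, and Cul4a differed by -0.64 (SE 0.25, adjusted p = 0.988). Of 11 SUMO ligases and proteases, 7 were lower, with a median of -0.05.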

How the data were processed

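Per the labels' protocols, the arrays were Affymetrix chips read with biotin-labelled RNA. The submitters' processing notes name RMA and Partek, with no version or settings given in the sources used here, and the deposited values are log2 levels. RMA compresses differences of dim probe sets, and no detection calls were used. Precision is limited by the 3 arrays in each group.

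Of 45101 probe sets, 34945 had 1 gene symbol in GEO's platform annotation, 932 had several and 9211 had none; 64 controls were left out. Each of 18193 genes took its probe set of highest mean. The 33 Ube2 symbols matched RefSeq (GRCm38.p6) by Entrez identifier. Ube2m is not analysed here, and Ube2l3 shared its probe sets with other genes.

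The genotypes were compared in limma 3.58.1 (R 4.3.3, functions lmFit and eBayes), without a block, with p values adjusted over all genes by Benjamini-Hochberg. Single values were compared with exact two-sided permutation tests, enumerated in Python 3.11.15, and relations over all 720 pairings. The confidence intervals used the t quantile of scipy 1.17.1. Arrays of a group were taken as separate mice, as the design text gives 3 each. The members and lists were chosen with earlier results of these data known. Array values are given for the 10 Ube2 genes of smallest p, for 7 others by role (Ube2c, Ube2s, Ube2t, Ube2l6, Ube2h, Ube2o and Ube2n, where measured) and for genes said to be chosen after their values were seen; from each other list, up to 3 genes of smallest p were named. Ube2b, Ube2f, Ube2r2, Ube2j1, Trim25, Fancd2, Fancl, Rgs13, Ranbp9 and Maea were also chosen after their values were seen. Scripts were tested on simulated data. Alternatives were 15 settings of probe set choice, filter, normalization, fit, covariate, block and left-out mice.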

Additional observations from a re-analysis of the deposited data

How the results depend on the processing

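No Ube2 gene, and no gene of all measured, had an adjusted p under 0.05 under any of the 15 settings. The count of Ube2 genes lower in ImHABCL6/Uchl1, 23, ran from 17 to 24. Over the same settings the share of all genes that were lower ran from 43.4% to 61.6%. The count of genes whose groups did not overlap, 4, was 2 without dim genes and ran from 4 to 10 with 1 mouse left out. The share over all genes was not computed beside these counts of separated genes, and fewer arrays make a separation easier. Under settings added after the data were seen, the count related to the erythroid mean, 5, was 2 without suffixed probe sets and 3 with median centring. Ube2t, Ube2d-ps, Ube2q2, Ube2v2, Ube2u and Ube2d1 kept their sign under every setting tried on them, and Ube2t ran from -0.76 to -0.29. Signs turned as follows. With the mean of all probe sets, Ube2k was 0.00015, Ube2b -0.11 and Ube2h -0.14. Without suffixed probe sets, Ube2s was 0.12 and Ube2f 0.20. Ube2n, at -0.00, was 0.02 with median centring, 0.10 with quantile normalization and 0.10 with array weights. Array weights gave -0.39 for Ube2b, -0.07 for Ube2r2, -0.36 for Ube2h and -0.49 for Ube2o. The erythroid covariate, itself not level between the genotypes, gave 0.03 for Ube2e3, 0.11 for Ube2c, 0.37 for Ube2f and 1.01 for Ube2l6. With 1 mouse left out, the range was -0.36 to 0.31 for Ube2b, -0.28 to 0.28 for Ube2r2, -0.48 to 0.47 for Ube2h, -0.79 to 0.82 for Ube2o, -0.08 to 0.16 for Ube2n, -0.46 to 0.05 for Ube2f and -0.87 to 0.33 for Ube2l6. Apart from what each setting leaves out by construction, the cause was not tested. The labels state no pairing of the mice by replicate number. Deviations of same-numbered arrays from their group means correlated at 0.43, 0.19 and -0.26, which cannot decide whether the mice were paired. With the replicate number as a block, 0 of the 33 differences changed sign, 23 were lower, 0 Ube2 genes passed adjustment and the smallest adjusted p was 0.717. Of 34 other bright probe sets of the Ube2 genes, 15 had a difference opposite in sign to the one used.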

Other observations

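UBE2L3 works with ligases of the RING-between-RING and HECT types, among them those of linear chains. Ube2l3 was read by 4 probe sets, each annotated to 5 gene symbols, so none of them counts as a measurement of Ube2l3 alone. Their differences, ImHABCL6/Uchl1 minus ImHABCL6, were 0.15, 0.04, -0.05 and 0.09 on the log2 scale. The first read 10.38, 10.36 and 10.21 in the ImHABCL6 mice and 10.67, 10.19 and 10.54 in the ImHABCL6/Uchl1 mice. ImHABCL6/Uchl1 replicate 2 was the lowest array for all 4 probe sets.

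Among the ubiquitin-like modifiers of autophagy, named after their values were seen, Map1lc3b and Gabarapl2 shared the profile of Ube2o. Map1lc3b read 11.64, 12.19 and 12.43 in the ImHABCL6 mice and 11.56, 12.93 and 11.67 in the ImHABCL6/Uchl1 mice, and Gabarapl2 10.42, 11.19 and 11.16 against 10.57, 11.95 and 10.60. Each had r = 0.98 with Ube2o over the 6 arrays. Gabarap, of the same family, spanned 0.20 and had r = -0.76, and Nedd8, the modifier loaded by UBE2F, spanned 0.73 and had r = -0.94.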
